A study of Mus musculus with 15 samples.

Results

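The Notch receptors Notch1, Notch2 and Notch3, the ligands Dll1, Dll4 and Jag1, the ligand-receptor modifier Lfng and the target genes Hes1, Hes5 and Nrarp were followed through RNA sequencing of mouse intestinal organoids. These 10 genes were chosen by name and matched to their Ensembl identifiers, out of 43629 genes in the count table. They were chosen with earlier results of these data known. Organoids are crypt-derived epithelial cultures grown in matrix. All cultures were of C57B6/129 strain background, and the series asked how R-spondin gene fusions alter transcription. WT comprised 5 libraries in ENR medium, which contains EGF, Noggin and R-spondin. Of these, 4 came from Apc flox/flox organoids numbered 1, 2, 5 and 6, whose floxed alleles are intact, and 1 came from dox-naive organoids, in which doxycycline had not switched on the Cas9 transgene. Apc comprised 4 libraries of Apc delta/delta organoids with the same numbers, which lack functional Apc, the scaffold that holds beta-catenin in check, and were kept in EN medium, without R-spondin. P-Rspo3 comprised 4 libraries of Ptprk-Rspo3 organoids in EN medium, labelled 15d, 4d, M and F. They carry an inversion made by doxycycline-inducible Cas9 in R26-rtTA bi-transgenic cells, and were polyclonal populations able to grow without added R-spondin, not single clones. Genotype and medium therefore changed together between WT and both mutant groups and cannot be told apart there, whereas Apc and P-Rspo3 shared a medium.

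Library totals in these 3 groups ranged from 28902729 to 35528495 counts. Rspo3, the fused ligand gene, had 1079, 539, 1049 and 867 counts in P-Rspo3 replicates 15d, 4d, M and F, against 0 or 1 count in the WT libraries and 7 to 57 in Apc. Ptprk, its fusion partner, had 2012, 3107, 1939 and 1517 counts in these replicates, against 2958 to 4996 in WT. Replicate 4d, with the lowest Rspo3 count of its group, thus lay within the WT range of Ptprk. Counts of the Apc gene itself ran from 4046 to 6810 in WT and from 9265 to 10953 in Apc, but a whole-gene count also takes in exons outside the deleted part and checks nothing about the deletion. The summed FPKM of 7 epithelial markers had medians of 2032 in WT, 2289 in Apc and 2288 in P-Rspo3. Of 10 mesenchymal markers, 7 had at most 3 counts in every WT and P-Rspo3 library. A pair of further libraries, titled LIPO and NAIVE_F, carry titles and genotypes that conflict and entered no group. Nothing in the labels says that the replicates were separate animals, so p-values measure the spread between these libraries only.

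Notch signalling passes between touching cells. A Delta or Jagged ligand on one cell pulls on a Notch receptor on its neighbour, gamma-secretase then frees the receptor's intracellular domain, and this domain joins the DNA-binding protein RBPJ and a Mastermind coactivator to switch on targets such as the Hes repressors. In the crypt, Notch activity holds progenitors back from the secretory fates by repressing Atoh1, and Paneth cells present Dll1 and Dll4 to the stem cells beside them.

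On GRCm38, with gene models from GENCODE, 4 of the 10 genes lie on chromosome 2, namely Notch1 (chr2:26457903-26516663, minus strand), Dll4 (chr2:119325784-119335962, plus strand), Jag1 (chr2:137081456-137116644, minus strand) and Nrarp (chr2:25180758-25183339, plus strand). Notch3 (chr17:32120820-32166852) and Dll1 (chr17:15367354-15376872) lie on the minus strand of chromosome 17. The others are on the plus strand, Notch2 at chr3:98013527-98150361, Hes5 at chr4:154960923-154962371, Lfng at chr5:140607320-140615545 and Hes1 at chr16:30064384-30067796. All 10 are protein coding, and values are per whole gene.

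The 10 genes split in Apc organoids. The receptors Notch2 and Notch3, the ligand Jag1 and the modifier Lfng were higher there, while the Delta ligand Dll1 and the targets Hes5 and Nrarp were lower, and Notch1 did not pass the test. With edgeR's quasi-likelihood test and a Benjamini-Hochberg adjusted p under 0.05, 4 of the 10 were higher and 5 lower in Apc than in WT, on a background of 30.0% and 29.0% of 16749 genes tested. With an absolute log2 fold change above 1 as well, 4 were called higher and 3 lower, where the background was 12.2% and 14.1%. The median log2 fold change of the 10 was -0.15, beside 0.00058 over all genes tested. In P-Rspo3 none of the 10 differed from WT under either rule, and across 15992 genes 0.00625% passed higher and 0% lower, both by the adjusted p alone and with the fold threshold. The fold threshold applied below is the log2 fold change above 1, and a gene said to rise, fall or pass had an adjusted p under 0.05.

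**Figure D1:**
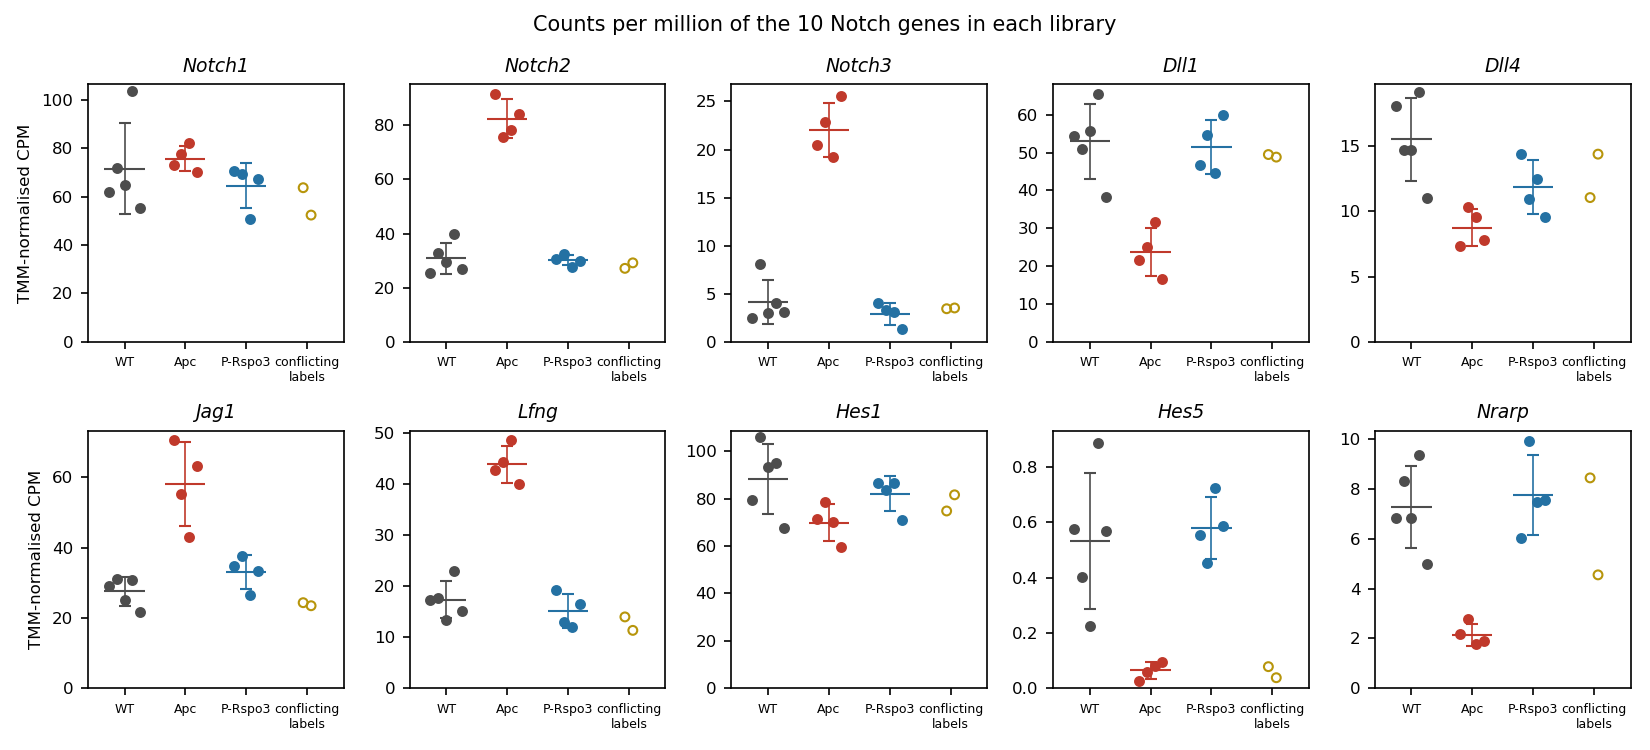
TMM-scaled CPM (counts relative to library size) of each of the 10 genes on the y axis, 1 point per library, for WT, Apc, P-Rspo3 and the pair of libraries with conflicting labels (open circles); bars give the mean and SD of each group. Notch2, Notch3, Jag1 and Lfng sit higher in all 4 Apc libraries than in any WT library, Dll1, Dll4, Hes5 and Nrarp sit lower, and Notch1 and Hes1 overlap. The share of all genes that separate in this way was not determined.

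Among the receptors, Notch2 was at 25.5, 32.7, 29.7, 39.8 and 26.8 CPM in WT replicates 1, 2, 5, 6 and naive. CPM, the count scaled to library size by TMM, makes libraries comparable for 1 gene but is not corrected for gene length. The Apc replicates 1, 2, 5 and 6 had 91.7, 75.6, 78.1 and 84.0 CPM of Notch2, and P-Rspo3 replicates 15d, 4d, M and F had 30.7, 32.6, 27.8 and 30.0 CPM. Every Apc library lay above every other library. The group mean was 2.67-fold that of WT, with a log2 fold change of 1.40 (SE 0.12, edgeR adjusted p = 3.23e-06), and against P-Rspo3 it was 1.43 (adjusted p = 9.69e-07). In RNA of whole cultures, a change in the share of cells of a type and a change in RNA per cell cannot be told apart, here or in any result that follows.

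Notch3, a receptor best known from smooth muscle and pericytes, was the least abundant of Notch1, Notch2 and Notch3 in WT. It had 2.47, 8.10, 2.97, 4.08 and 3.12 CPM in WT, 20.5, 22.9, 19.3 and 25.6 CPM in Apc, and 4.01, 3.29, 3.12 and 1.28 CPM in P-Rspo3. WT replicate 2 stood apart at the top of its group but remained below the lowest Apc library. Notch3 rose by a log2 fold change of 2.39 (SE 0.31, edgeR adjusted p = 5.77e-05), a 5.32-fold higher mean, and against P-Rspo3 the log2 fold change was 2.90 (adjusted p = 3.29e-05). Markers of other cell types moved in Apc too. Summed FPKM over 8 endothelial markers had a median of 2.64 in WT and 14.8 in Apc, led by Vwf with a mean of 6.68 FPKM. Of the 5 markers tested, 4 rose, where the background was 30.0% of all genes tested. Cdh5 had 0 counts in all WT libraries and 217 to 372 in Apc, and passed the filter of 0.1 FPKM only with the Apc libraries. Vwf, Tek and Esam rose by 5.32, 3.82 and 1.42 on the log2 scale. Kdr and Emcn had at most 3 counts in every Apc library, and Pecam1 fell. Over 10 mesenchymal markers the summed median was 0.138 FPKM in WT and 0.518 in Apc, led there by Thy1 at 0.229, and Col1a2, Col3a1, Des, Dcn and Lum had at most 3 counts in every Apc library. The 2 mesenchymal markers tested went in opposite directions. Pdgfrb, a pericyte marker, fell by 3.63 on the log2 scale (edgeR adjusted p = 0.000509), to 0 to 8 counts in Apc from 18 to 39 in WT, and Pdgfra rose by 4.50 (adjusted p = 7.73e-06), to 54 to 73 counts from 0 to 4. Pdgfra was not tested between P-Rspo3 and WT, so it passed the filter of 0.1 FPKM only with the Apc libraries, where it was high. The part of these markers in the Notch3 result was not tested.

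Notch1, the main receptor of crypt progenitors, had 62.0, 72.0, 64.8, 104 and 55.4 CPM in WT. It had 73.0, 77.4, 82.3 and 70.2 CPM in Apc and 70.7, 69.4, 50.8 and 67.4 CPM in P-Rspo3. The 3 groups overlapped, and WT replicate 6 was the highest library of all. The log2 fold change between Apc and WT was 0.06 (SE 0.16, edgeR adjusted p = 0.769). Without WT replicate 6 it was 0.22 with an adjusted p of 0.0484, and against P-Rspo3 it was also 0.22 (adjusted p = 0.109).

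**Figure D2:**
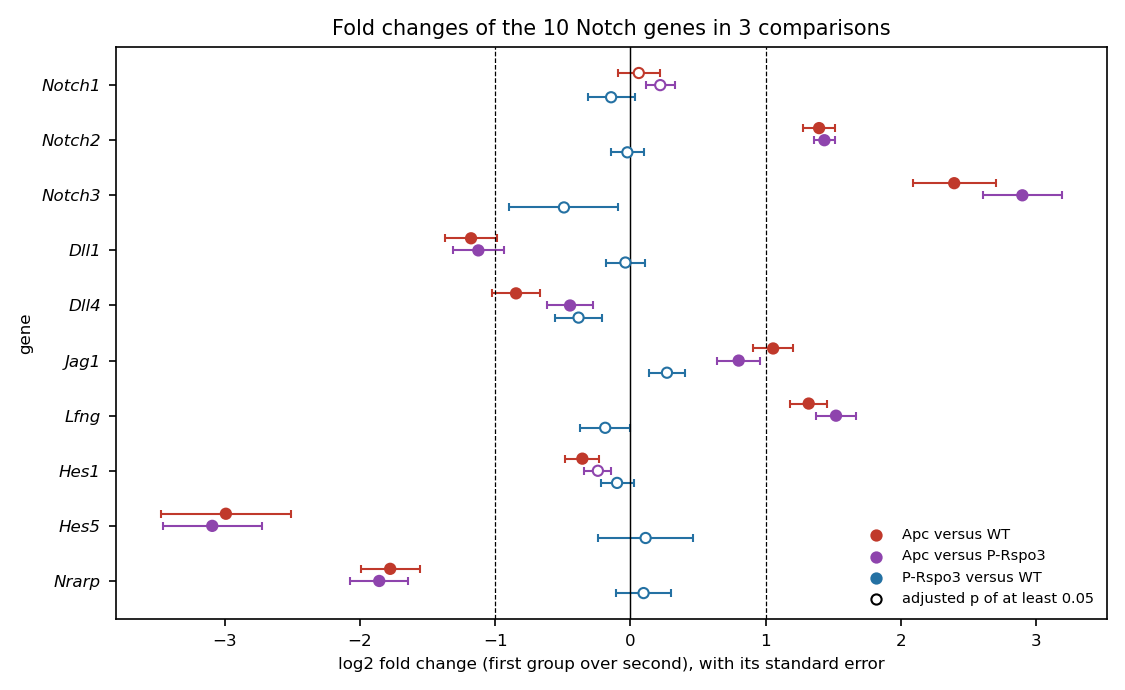
The log2 fold change of each of the 10 genes (x axis, first group over second) with its standard error, in the 3 comparisons; filled points passed an adjusted p of 0.05 in edgeR, and dashed lines mark a log2 fold change of 1 in either direction. The values for Apc run from 2.39 (against WT) and 2.90 (against P-Rspo3) for Notch3 to -2.99 and -3.09 for Hes5, and the P-Rspo3 points lie between -0.49 and 0.27.

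The ligands moved in opposite directions. Dll1, the Delta ligand of secretory progenitors and Paneth cells, had 54.4, 51.0, 55.6, 65.6 and 38.3 CPM in WT. It had 21.5, 25.1, 31.8 and 16.6 CPM in Apc and 46.7, 54.5, 44.5 and 60.0 CPM in P-Rspo3. No Apc library reached the lowest WT library, the naive one. Dll1 fell by 1.18 on the log2 scale (SE 0.19, edgeR adjusted p = 0.000338), and against P-Rspo3 it fell by 1.13 (adjusted p = 0.00075). Without Apc replicate 6 the latter value was -0.98, under the fold threshold.

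Dll4, the other Delta ligand of the crypt, had 18.1, 14.7, 14.7, 19.1 and 11.04 CPM in WT. It had 7.35, 10.3, 9.57 and 7.81 CPM in Apc and 14.4, 10.96, 12.5 and 9.60 CPM in P-Rspo3. Apc did not overlap with WT, whereas P-Rspo3 reached into both groups. Dll4 fell by 0.85 on the log2 scale in Apc (SE 0.18, edgeR adjusted p = 0.00168), short of the fold threshold, and passed in 18 of 20 alternatives. Those it did not pass were limma on log2(FPKM + 1), at -0.31 (adjusted p = 0.147), and on log2(FPKM + 0.1), at -0.42 (adjusted p = 0.143). In counts of alternatives against WT, the fit without WT naive enters under both its names, flox lines only and naive left out. Against P-Rspo3 the value was -0.45 (adjusted p = 0.0461), and it lost the threshold in 10 of 17 alternatives, among them the omission of Apc replicates 1, 5 or 6 or of P-Rspo3 replicates 15d, 4d or M, with adjusted p-values up to 0.361. Reads were counted without a stated strand setting, and both Delta genes overlap a gene on the other strand. A930024N18Rik shares 1873 bases with Dll1 and had 25 to 59 counts, and Gm14207 shares 411 bases with Dll4 and had 39 to 178 counts, so reads in these overlaps cannot be assigned with certainty.

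Jag1, a Jagged ligand and itself a known Wnt target, had 29.0, 31.1, 25.3, 30.8 and 21.6 CPM in WT. It had 70.7, 55.2, 42.9 and 63.4 CPM in Apc and 34.9, 37.7, 26.5 and 33.4 CPM in P-Rspo3. All 4 Apc libraries lay above the rest, with replicate 5 the lowest. Jag1 rose by a log2 fold change of 1.06 (SE 0.15, edgeR adjusted p = 0.000117). The fold was near its threshold, and it was 0.95 without Apc replicate 1 and 0.98 without WT naive. Against P-Rspo3 it was 0.80 (adjusted p = 0.00193), below the fold threshold.

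Among Dll1, Dll4 and Jag1 the shares differed in Apc, while the sum of these 3 ligands stayed within the WT range. Jag2 is not part of that sum. It had 5.74 ± 0.900 FPKM (SD, n = 5) in WT and 20.8 ± 3.75 (SD, n = 4) in Apc. FPKM are scaled by gene length, so that genes can be set side by side. Jag1 made up 18.1% ± 1.39 (SD, n = 5) of the summed FPKM of Dll1, Dll4 and Jag1 in WT, 50.5% ± 11.6 (SD, n = 4) in Apc and 21.7% ± 1.60 (SD, n = 4) in P-Rspo3. The lowest Apc share, 37.1%, was above the highest WT share, 19.6%. Dll1 went the other way, from 67.9% ± 2.01 (SD, n = 5) in WT to 38.3% ± 10.1 (SD, n = 4) in Apc. The sum over the 3 ligands was 23.95 FPKM in WT, 22.4 in Apc and 24.3 in P-Rspo3. The receptor sum was 11.3 ± 3.31 FPKM (SD, n = 5) in WT and 20.9 ± 2.15 (SD, n = 4) in Apc. Within it Notch2 went from 18.9% to 32.1% and Notch3 from 3.44% to 12.4%, and Notch1 from 77.7% to 55.5%. When counts were scaled to gene length in place of the deposited FPKM, Jag1 made up 22.3% of the ligand sum in WT and 55.7% in Apc, and Notch1 59.6% and 34.0% of the receptor sum. By that scale Notch2 made up 34.3% of the receptor sum in WT and 48.6% in Apc, where its lowest share, 45.9%, was above the highest of Notch1, 37.5%. Which receptor led in Apc thus depended on the scale, Notch1 by FPKM and Notch2 by length-scaled counts.

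**Figure D3:**
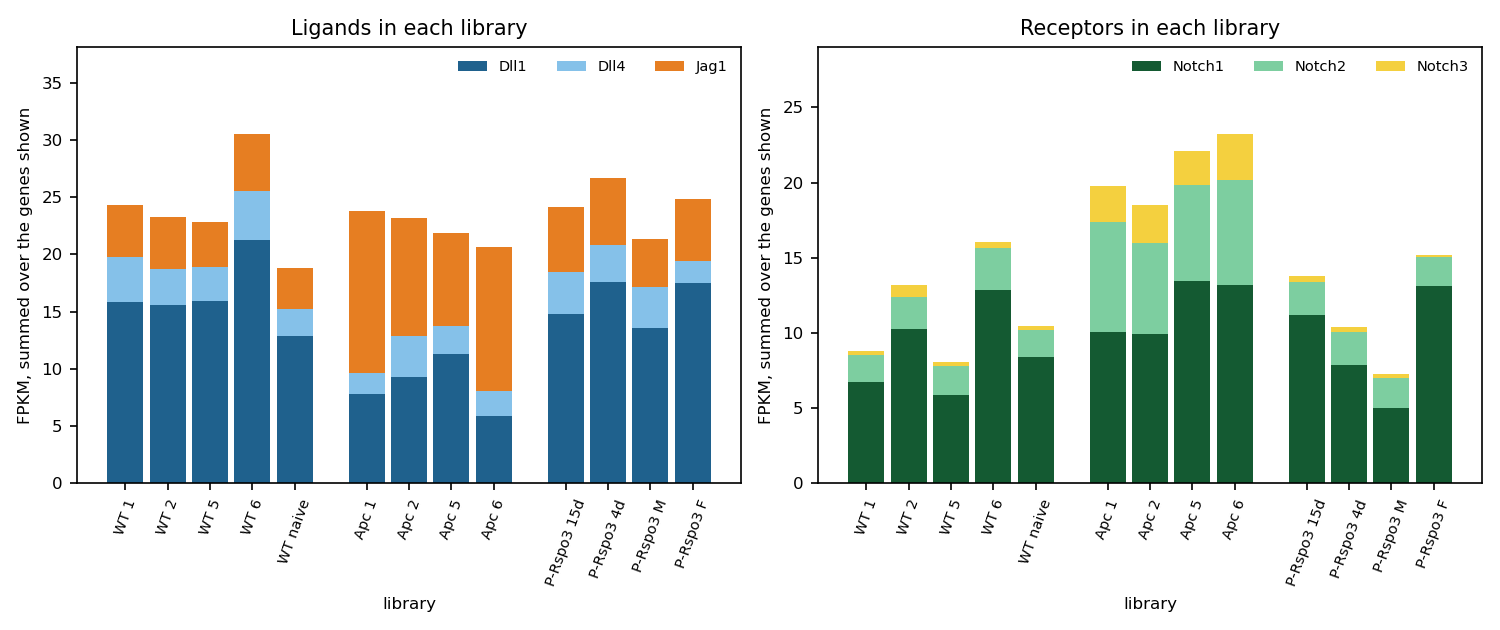
Stacked FPKM of the 3 ligands (left) and the 3 receptors (right) in each of the 13 grouped libraries; the height of a bar is the sum over the genes shown. In the 4 Apc libraries Jag1 takes 37.1% or more of the ligand bar, and Notch2 and Notch3 widen in the receptor bar.

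Lfng encodes Lunatic fringe, a Golgi glycosyltransferase that lengthens O-fucose sugars on Notch, which favours Delta over Jagged ligands. Lfng had 17.4, 17.7, 13.3, 23.0 and 15.2 CPM in WT. It had 42.7, 44.2, 48.5 and 39.9 CPM in Apc and 19.2, 12.9, 12.0 and 16.5 CPM in P-Rspo3. The Apc libraries were close to each other and far above the rest. Lfng rose by a log2 fold change of 1.32 (SE 0.14, edgeR adjusted p = 1.4e-05), and by 1.52 against P-Rspo3 (adjusted p = 2.89e-05). Of its sister enzymes, Mfng rose as well, by 1.21 (adjusted p = 0.018), and Rfng fell by 0.39 (adjusted p = 0.00563). Mfng lost its call past the fold threshold in 4 of 20 alternatives, with values down to 0.62.

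Of the 3 targets, Hes5 and Nrarp fell past the fold threshold in Apc and Hes1 fell short of it. Hes1, the repressor through which Notch holds Atoh1 down, was the most abundant of the 10 genes in every group, with 59.7, 57.2 and 57.5 FPKM in WT, Apc and P-Rspo3. It had 79.6, 106, 93.2, 94.8 and 67.7 CPM in WT, 71.5, 78.6, 70.1 and 59.6 CPM in Apc, and 86.6, 83.8, 86.7 and 71.2 CPM in P-Rspo3. The groups overlapped, with WT naive below 3 of the 4 Apc libraries. Hes1 fell by 0.36 on the log2 scale in Apc (SE 0.13, edgeR adjusted p = 0.0304), and passed in 12 of 20 alternatives. Over these alternatives its log2 fold change ran from -0.44 to -0.053, with adjusted p-values from 0.00497 to 0.747. Against P-Rspo3 the value was -0.24 (adjusted p = 0.0634).

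Hes5, a second Hes repressor and a sensitive Notch target in many tissues, was close to the limit of detection. Raw counts were 18, 11, 6, 30 and 16 in WT, 1, 2, 3 and 4 in Apc, and 18, 13, 22 and 16 in P-Rspo3. No Apc library reached the lowest WT library, replicate 5. Hes5 fell by 2.99 on the log2 scale (SE 0.48, edgeR adjusted p = 0.000307), and by 3.09 against P-Rspo3 (adjusted p = 8.73e-05). With limma on log2(FPKM + 1), a scale that understates changes of low genes, the values were -0.67 (adjusted p = 0.0245) and -0.66 (adjusted p = 0.000203), under the fold threshold. Gm20421, on the other strand, shares 756 bases with Hes5 and had 0 to 2 counts, so reads there cannot be assigned with certainty. Pooled over libraries, 10 counts in Apc stood against 81 in WT, a rate 6.99-fold lower, with an exact 95% interval of 3.61 to 15.1 that covers counting error only. The libraries LIPO and NAIVE_F, neither of them labelled Apc, had 2 and 1 counts, within the Apc range. With LIPO placed in WT by its genotype field the log2 fold change was -2.78 (adjusted p = 0.002), and with NAIVE_F placed in P-Rspo3 that against P-Rspo3 was -2.80 (adjusted p = 0.00402). A low Hes5 count was thus not particular to Apc among the 15 libraries.

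Nrarp, a small ankyrin-repeat protein that is switched on by Notch and dampens it in return, had 6.85, 8.32, 6.85, 9.36 and 4.99 CPM in WT. It had 2.18, 2.77, 1.77 and 1.89 CPM in Apc and 6.04, 9.92, 7.48 and 7.55 CPM in P-Rspo3. Every Apc library lay below every other library, LIPO and NAIVE_F included at 8.45 and 4.55 CPM. Nrarp fell by 1.78 on the log2 scale (SE 0.22, edgeR adjusted p = 4.38e-05), and by 1.86 against P-Rspo3 (adjusted p = 7.66e-05). Its mean was 3.38-fold lower than in WT. Gm38287, on the other strand, shares 2559 bases with Nrarp and had 0 counts, so reads there cannot be assigned with certainty.

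The promoters of Hes5 and Nrarp, which fell together, and of Lfng, which rose, are shown because RBPJ acts through short DNA words near its targets. Windows of 300 bases, 250 before and 50 from the transcription start, were taken from RefSeq on GRCm38.p6. Capitals mark TGGGAA, the core word bound by RBPJ, read on either strand, and the minus-strand form is TTCCCA. The Hes5 window lies at chr4:154960673-154960972, the Lfng window at chr5:140607091-140607390 and the Nrarp window at chr2:25180508-25180807, all on the plus strand.
Hes5: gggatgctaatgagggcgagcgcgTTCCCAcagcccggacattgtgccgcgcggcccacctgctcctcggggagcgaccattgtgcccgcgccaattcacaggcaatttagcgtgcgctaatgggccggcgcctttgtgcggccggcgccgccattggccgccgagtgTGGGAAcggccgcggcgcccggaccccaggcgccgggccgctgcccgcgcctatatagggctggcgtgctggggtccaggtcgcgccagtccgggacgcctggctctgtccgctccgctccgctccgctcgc
Lfng: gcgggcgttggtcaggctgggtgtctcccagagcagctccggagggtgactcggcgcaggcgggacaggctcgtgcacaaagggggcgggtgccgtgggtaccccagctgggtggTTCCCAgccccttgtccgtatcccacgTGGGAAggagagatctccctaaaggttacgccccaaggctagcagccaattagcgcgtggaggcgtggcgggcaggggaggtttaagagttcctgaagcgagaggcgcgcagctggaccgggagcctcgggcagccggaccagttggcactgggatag
Nrarp: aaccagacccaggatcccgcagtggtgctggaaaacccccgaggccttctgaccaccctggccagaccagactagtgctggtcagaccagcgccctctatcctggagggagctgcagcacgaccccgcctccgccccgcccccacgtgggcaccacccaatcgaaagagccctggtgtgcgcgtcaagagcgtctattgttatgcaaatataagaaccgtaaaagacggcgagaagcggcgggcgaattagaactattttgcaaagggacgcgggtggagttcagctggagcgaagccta
Of the 10 genes, 9 had a window in the table (10 windows, since Dll1 has a second start), and Hes1 was not among them. TGGGAA stood in the windows of Hes5, at -82 and, on the minus strand, -226 from the start, and of Lfng, at -108 and, on the minus strand, -135, and in none of the others. The same word stood in 25.6% of 32851 promoter windows. The longer word GTGGGAA, which contains it, stood in both of these genes' windows and in 6.38% of all windows. ATCAAAG, a TCF/LEF word, stood in none of the 10 windows and in 3.73% of all windows. Both windows with the RBPJ word thus belong to genes that moved in opposite directions in Apc. A match to letters is a description and not a site of binding.

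By deposited FPKM, Hes1 led in WT at 59.7 ± 10.1 FPKM (SD, n = 5), followed by Dll1 at 16.3, Nrarp at 12.2, Notch1 at 8.83, Lfng at 5.92, Jag1 at 4.31, Dll4 at 3.35, Notch2 at 2.08, Hes5 at 0.914 and Notch3 at 0.394 FPKM. Below Hes1, each gene in WT overlapped in range with the next. P-Rspo3 kept this order, with Hes1 at 57.5, Dll1 at 15.9 and Nrarp at 13.8 FPKM at its head. In Apc the order became Hes1 at 57.2, Lfng at 18.2, Notch1 at 11.7, Jag1 at 11.3, Dll1 at 8.57, Notch2 at 6.67, Nrarp at 4.11, Notch3 at 2.58, Dll4 at 2.52 and Hes5 at 0.143 FPKM. Hes1, Lfng, Nrarp and Hes5 were there separated from both neighbours, while Notch1, Jag1, Dll1 and Notch2 overlapped in turn, as did Notch3 and Dll4. Counts and FPKM do not give the same level for every gene, and the order below Hes1 depends on which is used. By length-scaled counts, Nrarp ranked 8 in WT in place of 3, Notch1 ranked 6 in Apc in place of 3, and P-Rspo3 did not keep the WT order, since Jag1 was there above Notch1, Nrarp above Notch2 and Hes5 above Notch3. FPKM of Nrarp was a median of 4.58 times its length-scaled count, and the antisense gene Gm38287 covers 2559 bases of Nrarp with 0 counts in every library. The ratio of the 2 scales varied 5.49-fold between libraries for Hes5 and 2.15-fold for Notch1, so fold changes were taken from counts.

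No change in these genes was detected in P-Rspo3. Log2 fold changes against WT ran from -0.49 (SE 0.40) for Notch3 to 0.27 (SE 0.13) for Jag1, and edgeR's adjusted p-values from 0.381 for Dll4 to 0.972 for Notch2. Unadjusted, the smallest was 0.0542, for Dll4, while 2159 genes of the whole table had an unadjusted p under 0.05. All 10 genes overlapped between P-Rspo3 and WT, but the share of all genes that overlap was not determined. DESeq2 called 55 genes of the table higher and 173 lower, and also 0 of these 10. Apc and P-Rspo3, which share their EN medium, differed by 4 genes higher and 4 lower, against 28.7% and 27.7% of 16456 genes tested, and by 3 and 3 with the fold threshold, against 13.4% and 13.3%. Both Apc comparisons use the same 4 Apc libraries, and so are not independent of each other.

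The rest of the pathway was read from fixed lists. These lists were chosen with earlier results of these data known, so counts beside the background describe them and test nothing. Of 5 further receptors and ligands, Jag2 and Dlk2 rose past the fold threshold in Apc (background 12.2%) and Notch4 and Dll3 fell past it (background 14.1%), with a median log2 fold change of -0.73. Dlk2 was low, at means of 0.142 CPM in WT and 0.322 CPM in Apc. It was not tested between P-Rspo3 and WT, so it passed the FPKM filter only with the Apc libraries, where it was high. Against P-Rspo3 it was at 0.85 (edgeR adjusted p = 0.0839). Jag2, the second Jagged ligand, had 38.1, 40.3, 33.3, 34.8 and 26.9 CPM in WT, 126, 108, 80.0 and 103 CPM in Apc, and 51.2, 50.9, 43.4 and 27.1 CPM in P-Rspo3. Jag2 thus rose in Apc as Jag1 did, by a log2 fold change of 1.57 (SE 0.14, edgeR adjusted p = 4.09e-06) against WT and of 1.26 (adjusted p = 0.000598) against P-Rspo3. Notch4, known from endothelium, fell by 1.45 (adjusted p = 0.000496) against WT and by 1.71 (adjusted p = 0.00107) against P-Rspo3, at means of 3.001 CPM in WT and 1.11 CPM in Apc. Dll3, which does not activate Notch in neighbouring cells, fell by 1.63 against WT (adjusted p = 0.00563) but was at -0.26 against P-Rspo3 (adjusted p = 0.738). Over 20 alternatives in Apc against WT, Jag2 was called in each, while Notch4 was not called in 3, Dll3 in 2 and Dlk2 in 4. These were an FPKM of at least 1, under which those 3 genes were not tested, the forms of limma on FPKM and, for Dlk2, DESeq2.

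Of 29 genes that process ligands and receptors, 28 were tested in Apc against WT, and 11 rose and 12 fell, with 5 and 2 past the fold threshold. The background for these counts and those of the lists below is the share of all genes given above, 30.0% higher and 29.0% lower, and 12.2% and 14.1% with the fold threshold. The 2 were Numb, the inhibitor that is partitioned unevenly at cell division (-1.15, SE 0.07, edgeR adjusted p = 2.1e-07), and the ubiquitin ligase Neurl1b (-1.28, adjusted p = 8.77e-05). The 5 were Poglut1, which puts O-glucose on Notch (1.42), Mfng (1.21), Neurl1a (2.56), Numbl (1.16) and Dtx3 (2.86). The gamma-secretase genes Aph1a and Psenen fell by 0.46 each, short of the fold threshold, Aph1b rose by 0.68 (adjusted p = 0.0131), and the subunit Ncstn was at 0.00 (adjusted p = 0.99). The median over the 28 was -0.13, beside 0.00058 over all genes tested. Against P-Rspo3, 11 rose and 12 fell, with 5 and 2 past the fold threshold, where the background was 28.7% and 27.7%, and 13.4% and 13.3% with the threshold. Aph1b was among the 5, at 1.30 (adjusted p = 0.00236), and Poglut1, at 0.96 (adjusted p = 4.07e-05), was not.

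Of 14 genes of the nuclear complex, 6 rose and 3 fell, with Maml2 and Tle3 past the fold threshold (background 12.2% higher) and a median of 0.08. Maml2, a Mastermind coactivator, was barely present in WT at 0.256, 0.730, 0.264, 0.295 and 0.283 CPM, and in P-Rspo3 at 0.278, 0.0347, 0.0984 and 0.183 CPM. The Apc libraries had 12.1, 11.4, 9.17 and 10.4 CPM. Its log2 fold change was 4.86 (SE 0.30, edgeR adjusted p = 2.85e-07), and 6.12 against P-Rspo3 (adjusted p = 2.03e-06). Maml2 was not tested between P-Rspo3 and WT, so it passed the FPKM filter only with the Apc libraries, where it was high. Against WT it was called in each of 20 alternatives, the fit with no FPKM filter among them. Maml1 and Maml3 were at 0.07 and 0.09 (adjusted p = 0.474 and 0.354). Rbpj, the DNA-binding protein of the complex, rose by 0.48 (adjusted p = 0.000759), and Tle3, a Groucho corepressor, by 1.19 (adjusted p = 2.05e-05).

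**Figure D4:**
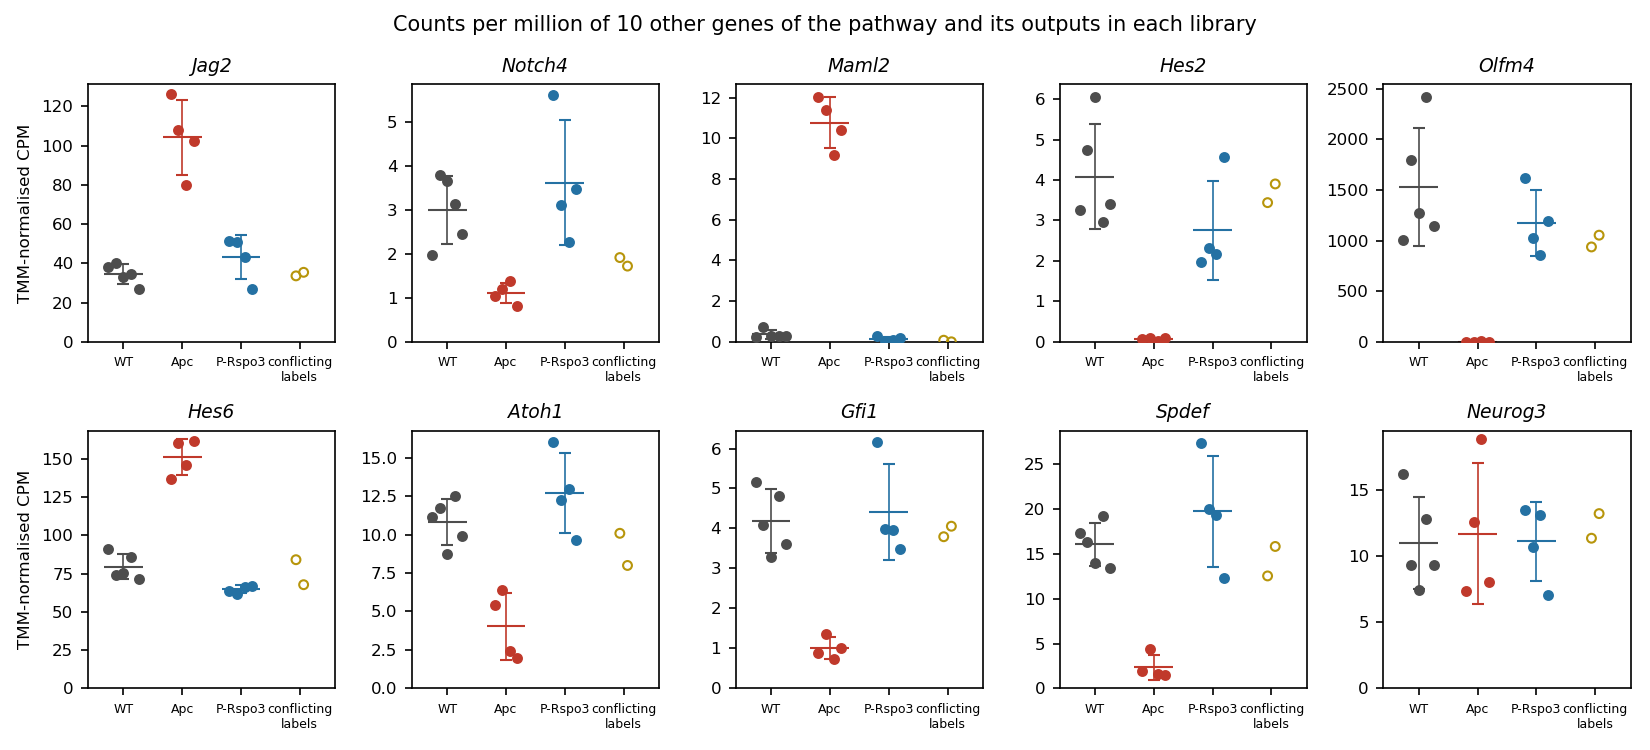
CPM after TMM scaling (y axis) of 10 other genes of the pathway and its outputs, chosen from the lists after their values were seen, with 1 point per library and the mean and SD of each group; open circles are the libraries with conflicting labels. Jag2, Maml2 and Hes6 sit higher in Apc, Notch4, Hes2, Olfm4, Atoh1, Gfi1 and Spdef lower, and Neurog3 overlaps in all groups.

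Of 14 further genes reported as Notch targets, 10 were expressed enough to be tested, and Hey1, Hey2, Heyl and Hes3 were not. Hey1 had 1 to 5 counts per library in WT, 5 to 20 in Apc and 0 to 5 in P-Rspo3. Hey2 had 0 counts in every WT library, 2 to 11 in Apc and 0 to 1 in P-Rspo3, and Heyl and Hes3 had at most 2 counts in any library of the 3 groups. With no FPKM filter Hey1 and Hey2 were called higher in Apc, on these low counts. Against WT, 4 in place of 2 of the list were then called higher and 3 lower. Over all genes it was then 2766 higher and 2747 lower of 26170 tested. Against P-Rspo3, 5 of the list were called higher and 3 lower with the filter (background 13.4% and 13.3%), and 7 and 2 without it. Over all genes, 2903 were called higher and 2589 lower of 26036 tested against P-Rspo3 without the filter. Of the 10 tested, 5 rose and 4 fell, with 2 and 3 past the fold threshold (background 12.2% and 14.1%) and a median of 0.05. Olfm4, a stem cell gene that depends on Notch, had 1006, 1800, 1271, 2420 and 1144 CPM in WT, 1618, 1028, 855 and 1196 CPM in P-Rspo3, and 0.461, 1.46, 3.91 and 1.23 CPM in Apc. It fell by 9.78 on the log2 scale (SE 0.63, edgeR adjusted p = 4.03e-07). Hes2 fell by 5.78 (adjusted p = 5.14e-07), down to 1 to 4 counts per Apc library, and Bhlhe40 fell by 1.14 (adjusted p = 0.000484). Those that rose past the threshold were Ccnd1, the cyclin D1 gene, by 2.08 (adjusted p = 3.39e-08), and Tspan12, by 1.22 (adjusted p = 1.94e-05), and both are also known as Wnt-responsive or stem cell genes. Hes6, which counteracts Hes1 in other tissues, rose by 0.91 (adjusted p = 7.9e-06).

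Of 8 genes that Hes1 and Notch are known to hold down in the secretory lineage, 4 fell past the fold threshold (background 14.1%), 1 rose past it (background 12.2%), and 1 more rose short of it, with a median of -0.95. Among the 4 was Dll3, which was also counted above with the further receptors and ligands. Atoh1, the switch to all secretory fates, had 11.1, 11.8, 8.77, 12.6 and 9.91 CPM in WT, 5.43, 6.37, 2.43 and 1.96 CPM in Apc, and 16.04, 12.2, 12.95 and 9.68 CPM in P-Rspo3. The Apc libraries were all lower than the rest, and Atoh1 fell by 1.44 on the log2 scale (SE 0.33, edgeR adjusted p = 0.00305). Gfi1 and Spdef, which act below Atoh1 in Paneth and goblet cells, fell by 2.08 (adjusted p = 2.45e-05) and 2.79 (adjusted p = 2.82e-05). Sox4 rose by 1.75 (adjusted p = 3.86e-05) and Foxa3 by 0.71 (adjusted p = 0.00217). Neurog3, the enteroendocrine switch, was at 0.07 (adjusted p = 0.882). Against P-Rspo3, 3 of the 8 fell (background 13.3%) and 1 rose (background 13.4%) past the fold threshold in Apc, and the values of Atoh1, Gfi1 and Spdef, which fell, were -1.67, -2.14 and -3.08 (edgeR adjusted p = 0.00393, 0.000125 and 0.000143). In P-Rspo3 0 genes of these 5 lists passed against WT in edgeR, and 0 were called in any of the alternatives tried.

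Markers of Paneth, goblet, enteroendocrine and enterocyte cells, which include cells that carry these ligands, were also lower in Apc. Summed FPKM over 8 Paneth markers had a median of 8113 in WT, 1083 in Apc and 7806 in P-Rspo3, led by Defa24 in WT and by Lyz1 in Apc. Over 7 goblet markers the medians were 2196, 294 and 2788, over 8 enteroendocrine markers 143, 30.3 and 122, and over 8 enterocyte markers 6235, 52.3 and 3751. Over 5 tuft cell markers the sums of the groups overlapped, at 5.31 to 10.1 FPKM in WT, 3.43 to 8.31 in Apc and 3.78 to 7.68 in P-Rspo3. Of these, 4 fell in Apc against WT, and Avil was at -0.31 (edgeR adjusted p = 0.603). Among the 4 was Gfi1b, which was not tested between Apc and P-Rspo3 and so passed the FPKM filter only with the WT libraries, where it was high. In Apc against WT, 6 of 8 Paneth (the other 2 rose), 7 of 7 goblet, 5 of 8 enteroendocrine and 8 of 8 enterocyte markers fell, and 4 of 6 stem cell markers rose while Olfm4 fell. The part of these changes in cell makeup in the values of Dll1, Dll4 and the secretory genes was not tested.

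Some genes had profiles across the 13 grouped libraries much like those of the genes called in Apc. Likeness was the root mean square difference of mean-centred log2 CPM, among the 12149 genes whose mean FPKM reached 1. Closest to Notch2 were Rab11fip2 (0.117) and Igf2r (0.119), and closest to Notch3 were Atxn10 (0.306) and Rasl11a (0.358). Jag1 was nearest to Dnajb5 (0.165) and Rai1 (0.181), and Lfng to Hsf2 (0.145) and Fbxo21 (0.154). On the falling side, Dll1 was nearest to Man1a (0.187) and Zfp524 (0.200), Nrarp to Pcnx (0.226) and Syde2 (0.238), and Hes5 to Slit2 (0.359) and St3gal6 (0.382). The larger differences belong to Hes5 and Notch3, the least abundant of the set.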

How the data were processed

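RNA of 15 organoid cultures was sequenced, and 13 libraries in 3 groups were compared. Members and gene lists were chosen with earlier results of these data known. Reads had been mapped by the authors to GRCm38 with STAR in 2 passes, and 2 tables were deposited. One holds whole-number read counts of Ensembl genes made with HTSeq 0.6.0, not normalized, and the other holds FPKM from Cufflinks 2.2.1, which the authors scaled by transcript length and library size. Which annotation release and strand option HTSeq was run with is not given in the sources used here. Symbols were matched to 42462 of 43629 genes through GENCODE on GRCm38, and every row of the count table named a gene.

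Counts were tested with edgeR 4.0.16 (R 4.3.3; TMM, glmQLFit and glmQLFTest at their defaults), each pair of groups on its own libraries, which was tested on simulated data. Tested genes reached 0.1 FPKM in a number of libraries no lower than the size of the smaller group. P-values were adjusted by Benjamini-Hochberg over all genes tested, and called genes also needed an absolute log2 fold change above 1. Library totals were 28902729 to 35528495 counts, and 3 counts or fewer were taken as not detectable. Every pair of libraries differed beyond sampling noise (the lowest chi-square divided by the number of genes was 18.6). All 10 members, any gene of the lists and, for each called member, the 2 genes of most similar profile were named, and 1 result is not reported here. Alternatives were DESeq2 1.42.0, DESeq2 size factors, other filters, 1 fit of all groups, limma 3.58.1 on log2(FPKM + 1) and log2(FPKM + 0.1), other assignments of libraries and each library left out. Against WT, flox lines only and WT naive left out are the same fit, and both enter the numbers of alternatives and settings. The sequencing batch is not given in the labels.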

Additional observations from a re-analysis of the deposited data

Results flagged for a closer look

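In 30 sets of 4 or 5 libraries (10 genes in 3 groups), 1 library stood apart from the rest of its group by Dixon's test in 2 sets, where chance flags about 1 in 20. Notch1 in P-Rspo3 replicate M was at 50.8 CPM, below the other 3 libraries of its group at 67.4 to 70.7. Notch3 in WT replicate 2 was at 8.10 CPM, above the other 4 WT libraries at 2.47 to 4.08. Without this library the log2 fold change of Notch3 in Apc was 2.78 (edgeR adjusted p = 1.34e-06). The library titled NAIVE_F, in no group, had 729 counts of Rspo3, where WT had 0 or 1.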

How the results depend on the processing

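With limma on log2(FPKM + 1), which understates changes of low genes, 1 member was called lower in Apc against WT and 1 against P-Rspo3 (Nrarp, since Hes5 and Dll1 lost the fold threshold), and with the adjusted p alone 5 were lower against WT. Over fits that each left out 1 library, 3 to 4 members were called higher and 3 to 3 lower in Apc against WT, 3 to 3 higher and 2 to 3 lower against P-Rspo3, and 0 to 0 in P-Rspo3 against WT. In these fits Jag1 and Dll1 were the genes that crossed the fold threshold. Limma on log2 FPKM, which changes the test, the measure and the pseudocount together, moved the median of all genes by 0.17 with the pseudocount 1 and 0.28 with 0.1 in Apc against WT, and by 0.16 and 0.25 against P-Rspo3. The calls over all genes were then 1418 higher and 1132 lower, and 2586 and 1731, in place of 2048 and 2364, and against P-Rspo3 1430 and 1124, and 2608 and 1653, in place of 2209 and 2183. Signs changed only near 0. Notch1 in Apc against WT was at -0.0196 with WT of the flox lines only, and from -0.0196 to 0.22 with 1 library left out. In P-Rspo3 against WT, Notch1 was at 0.0395 and 0.0396 with the 2 forms of limma, Notch2 at 0.00731 and 0.0150, Hes5 at -0.0141 with log2(FPKM + 1), and Nrarp at -0.0115 with flox lines only and -0.0673 with the conflicting libraries placed by genotype. With 1 library left out, Notch1 ran from -0.222 to 0.0262, Notch2 from -0.0825 to 0.0826, Dll1 from -0.134 to 0.0487, Hes5 from -0.0779 to 0.376 and Nrarp from -0.0465 to 0.203.

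Calls over all genes in P-Rspo3 against WT went from 1 higher and 0 lower to 55 and 173 in DESeq2 and to 166 and 100 without WT naive. Apc and WT libraries share numbers in their titles, and the labels do not say what the numbers mark. Deviations of same-numbered libraries correlated at a median of 0.098 (0.0024 to 0.19 over 4 pairs), and 3 of 4 Apc libraries correlated best with their own number. With the number as a replicate block, a fit that also leaves out WT naive, 3 members were called higher and 3 lower. Jag1 was then at 0.96 (edgeR adjusted p = 0.000284), and at 0.98 without WT naive and with no block, so the block itself changed no call among the 10 genes. Among the processing genes, 5 were called higher and 3 lower without WT naive, and 4 and 2 with the block as well. Notch3 was then at 2.44, Dll1 at -1.31, Hes5 at -2.93 and Nrarp at -1.90. Over the 21 settings of Apc against WT, the 8 genes held down by Hes1 had 1 to 4 called lower and 1 to 2 higher, the 14 further targets 2 to 3 and 2 to 5, the processing genes 0 to 3 and 2 to 6, the nuclear complex 0 to 0 and 2 to 3, and the 5 further receptors and ligands 0 to 3 and 1 to 2. Hes5 was not tested with an FPKM of at least 1. The causes were not tested.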

Other observations

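The libraries LIPO and NAIVE_F entered no comparison. LIPO had 63.7 CPM of Notch1, 27.1 of Notch2, 3.44 of Notch3, 49.5 of Dll1, 11.1 of Dll4, 24.4 of Jag1, 14.0 of Lfng, 74.8 of Hes1 and 8.45 of Nrarp. NAIVE_F had 52.4 CPM of Notch1, 29.2 of Notch2, 3.52 of Notch3, 48.8 of Dll1, 14.4 of Dll4, 23.5 of Jag1, 11.3 of Lfng, 81.6 of Hes1 and 4.55 of Nrarp. Olfm4 was at 937 CPM in LIPO and 1053 CPM in NAIVE_F, and Maml2 at 0.0782 and 0 CPM. Hes5, at 2 and 1 counts, was the member in which both libraries lay with Apc.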
